A study of Arabidopsis thaliana with 4 samples.

Results

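This report describes 10 genes of protein folding in the endoplasmic reticulum (ER) of Arabidopsis thaliana: 9 genes of chaperones, co-chaperones and a disulfide isomerase, and the gene of the transcription factor bZIP60. They were chosen by locus name, with earlier results of these data known, as the gene probes annotated to BIP1 (AT5G28540), BIP2 (AT5G42020), BIP3 (AT1G09080), SDF2 (AT2G25110), ERdj3B (AT3G62600), CNX1 (AT5G61790), CRT1a (AT1G56340), CRT3 (AT1G08450), PDIL1-1 (AT1G21750) and bZIP60 (AT1G42990). They are 10 of the 25665 loci on the array, were measured by 11 probes, and all 10 passed the filter on dim probes that left 19246 genes to test.

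RNA from shoot apices of the ron3 mutant was compared with RNA from the Ler control genotype on 4 two-colour Agilent arrays, called a to d. All plants were grown in vitro, in the light condition labelled LD, to growth stage 1.02. ron3 was labelled with Cy5 on arrays a and c and with Cy3 on arrays b and d, and Ler carried the other dye. The series was laid out as a pair of dye swaps on biological replicates, and which arrays had an extract in common is not stated, so the p-values may rest partly on technical spread.

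The ER lumen is where secreted and membrane proteins fold. The Hsp70 chaperone BiP binds unfolded chains together with J-domain co-chaperones, calnexin and calreticulin hold glycoproteins by their sugars, and disulfide isomerases form and rearrange disulfide bonds. When unfolded proteins build up, the sensor IRE1 splices the bZIP60 transcript and the membrane-bound factors bZIP17 and bZIP28 are released by proteolysis, and all of them then activate chaperone genes. This is the unfolded protein response. In plants, SDF2, ERdj3B, CRT3 and BiP are also known for the folding of the immune receptor EFR.

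The median spot signal lay between 129.5 and 164 in Cy3 and between 148 and 222 in Cy5, with array d the dimmest. RON3 (AT4G24500, listed as SIC in the reference), the gene for which the mutant is named, had log2 ratios of −2.31, −2.27, −2.21 and −2.41 on the 4 arrays. It was 4.92-fold lower in ron3 (limma, adjusted p = 0.000148), with both genotypes well above background on all 4 arrays. That probe was not placed relative to the lesion. Of 10 meristem and organ boundary genes used to check the tissue label, 8 were well above background in both genotypes on all 4 arrays. WUS and CLV3 were so on none.

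All 10 genes had higher transcript signals in ron3 than in Ler, on all 4 arrays, and all 10 rose past an adjusted p of 0.05 (limma, Benjamini-Hochberg over all genes tested). The sizes were very unequal. BIP3 rose 6.23-fold, CRT3 3.06-fold and bZIP60 2.88-fold, PDIL1-1 rose 1.55-fold, and the other 6 rose less than 1.5-fold. A call by itself says little in this comparison, since 69.8% of all genes tested were called in either direction and 37.0% were called higher in ron3. A log2 ratio above 0 on all 4 arrays was found in 38.8% of all genes tested. With the scaling of the scanner software, 5999 genes rose and 7392 fell in place of 7126 and 6312, and all 10 members stayed among those that rose. A rise of at least 2-fold was seen in 3 of the 10 members and in 6.03% of all genes tested. The median log2 ratio was 0.41 over the members and 0.02 over all genes tested. In such bulk samples of the apex, a change in the make-up of the tissue and a change per cell cannot be told apart.

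**Figure D1:**
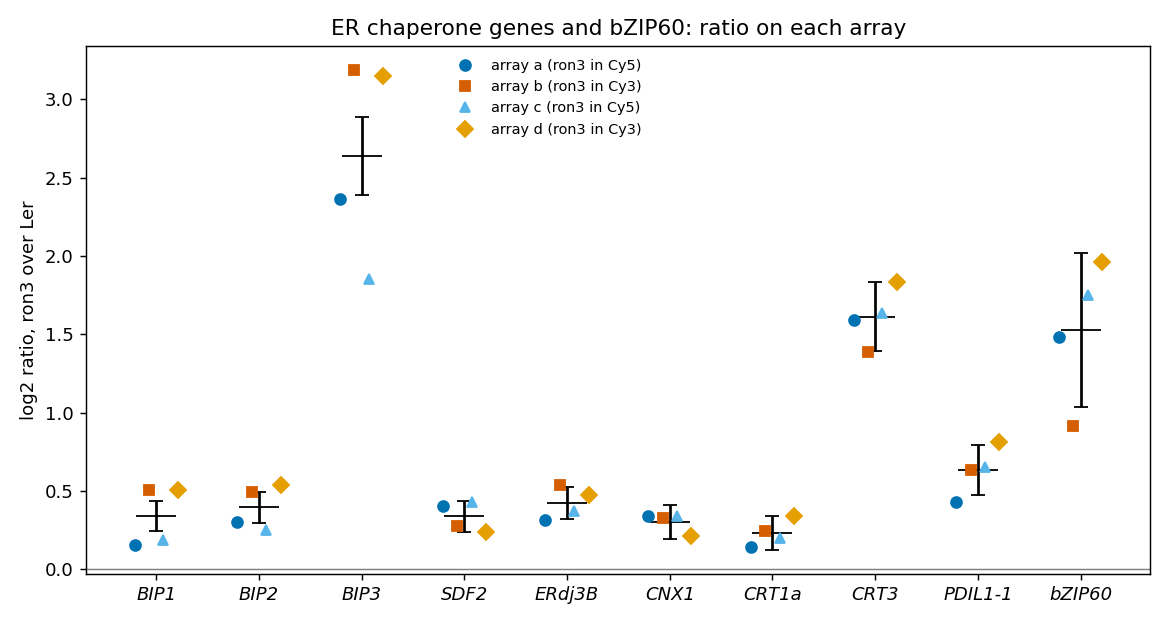
Log2 ratio of ron3 over Ler (vertical axis) for each of the 10 genes, with 1 point per array coloured and shaped by array, and the fitted mean with its 95% interval in black. All points lie above 0, BIP3 lies highest on every array, and the points of BIP3 and bZIP60 are the most scattered.

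The 3 BiP genes encode the Hsp70 chaperone of the lumen. BIP1 and BIP2 encode nearly identical proteins present in most tissues, while BIP3 is known for low basal expression and strong induction by ER stress. BIP3 had normalised log2 signals of 9.48, 9.68, 9.27 and 9.58 in ron3 on arrays a to d, and of 7.12, 6.50, 7.42 and 6.43 in Ler. The ranges of the genotypes were far apart, and the lower values of Ler fell on the arrays where Ler was labelled with Cy5. In Ler, the BIP3 probe was well above background on 3 of the 4 arrays, and in ron3 on all 4. Its log2 ratio was 2.36, 3.19, 1.85 and 3.15 on arrays a to d, or 2.64 ± 0.65 (SD, n = 4), with a 95% interval of the fold from 5.24 to 7.39 (limma, adjusted p = 0.000204). That interval comes from a fit with a dye effect and so does not cover the gap between the dye orientations: the log2 ratio averaged 2.11 with ron3 in Cy5 and 3.17 with ron3 in Cy3. The unadjusted p of that dye effect was 0.0033, and its adjusted p was 0.404 (limma). With the authors' value table, BIP3 stood higher still, at a log2 ratio of 3.87. That lies beyond the upper end of the 95% interval, 2.89 in log2 units, so the interval does not cover the choice of processing either.

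BIP1 and BIP2 changed little by comparison. BIP1 had normalised log2 signals of 13.02, 13.19, 12.97 and 13.15 in ron3 and 12.87, 12.69, 12.79 and 12.65 in Ler. Its log2 ratio was 0.16, 0.50, 0.19 and 0.51 on arrays a to d, a 1.26-fold rise (limma, adjusted p = 0.00156). The genotypes did not overlap, and the ratios fell into a low pair and a high pair that match the dye orientation. BIP2 had log2 signals of 12.81, 13.01, 12.84 and 13.26 in ron3 against 12.50, 12.52, 12.59 and 12.72 in Ler. Its log2 ratio was 0.30, 0.49, 0.25 and 0.54, a 1.32-fold rise (adjusted p = 0.00116). It too was higher in every ron3 sample than in any Ler sample, with the larger ratios on arrays b and d. Transcripts of BIP1 and BIP2 are so alike that each may bind the other's probe. The probe sequences were not examined, so the separate values of BIP1 and BIP2 are uncertain. Within each array, the BIP3 log2 ratio exceeded that of BIP2 by 2.06, 2.70, 1.60 and 2.61. The sign was the same on 4 of 4 arrays, which gives 0.125 in a two-sided exact sign-flip permutation test, the smallest p that 4 arrays allow.

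**Figure D2:**
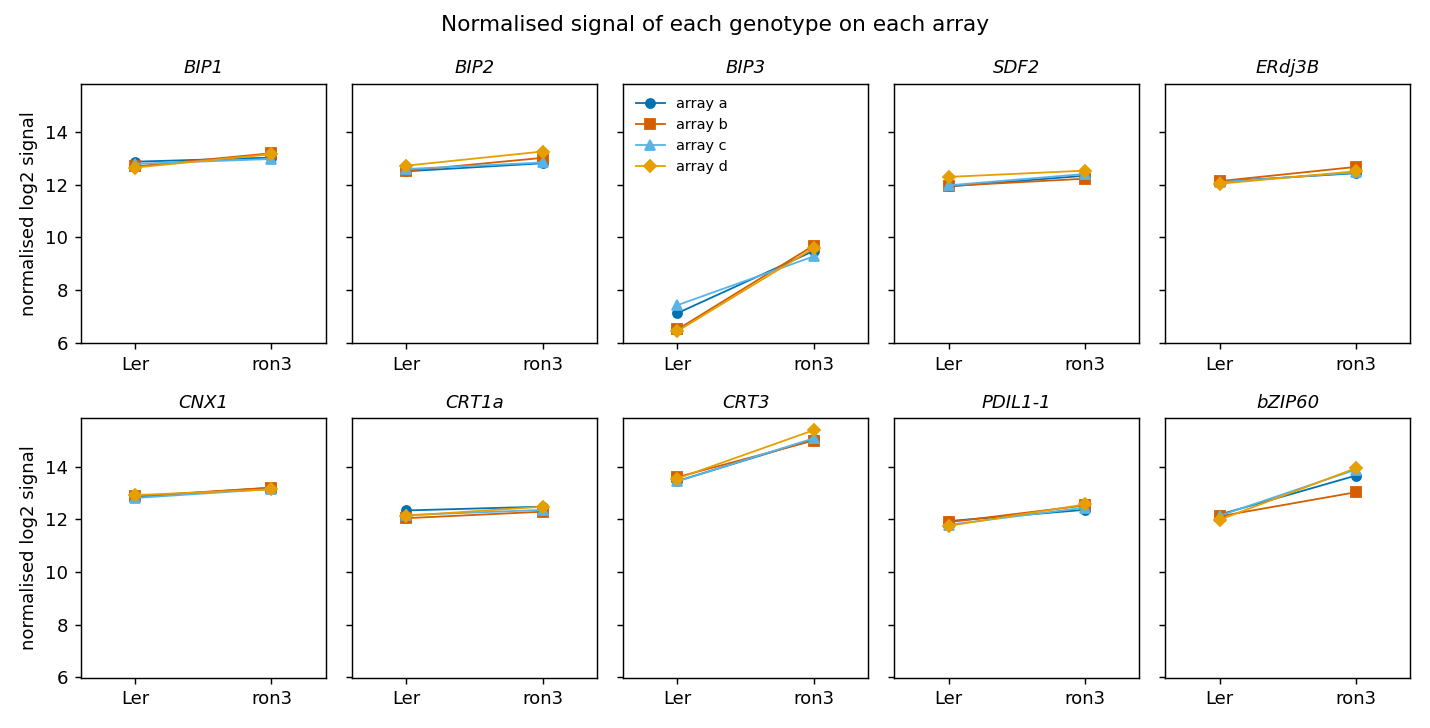
Normalised log2 signal (vertical axis) of Ler and ron3 for each of the 10 genes, with 1 line per array joining the 2 samples hybridised to it. All lines slope upwards from Ler to ron3, most steeply for BIP3, CRT3 and bZIP60, and the scatter of BIP3 lies mainly in Ler while that of bZIP60 lies mainly in ron3.

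The co-chaperones SDF2 and ERdj3B work with BiP in a lumenal complex. SDF2 had normalised log2 signals of 12.33, 12.22, 12.40 and 12.53 in ron3 and of 11.93, 11.95, 11.97 and 12.29 in Ler. Its Ler sample on array d was brighter than the ron3 sample on array b, so the genotypes overlapped across arrays although ron3 was higher within each one. The log2 ratio was 0.41, 0.28, 0.43 and 0.24 on arrays a to d, a 1.26-fold rise (limma, adjusted p = 0.00162). ERdj3B, the J-domain partner, had log2 signals of 12.43, 12.67, 12.46 and 12.50 in ron3 and of 12.12, 12.13, 12.09 and 12.03 in Ler. Its log2 ratio was 0.32, 0.54, 0.37 and 0.47, a 1.34-fold rise (adjusted p = 0.00103). The genotypes of ERdj3B did not overlap. SDF2 had its larger ratios with ron3 in Cy5 and ERdj3B with ron3 in Cy3, the opposite of each other.

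The lectin chaperones bind the trimmed glycans of folding glycoproteins. CRT3, the calreticulin known for its part in EFR folding, had normalised log2 signals of 15.04, 14.99, 15.08 and 15.39 in ron3 and 13.45, 13.60, 13.44 and 13.55 in Ler. The samples of each genotype lay close together, and the gap between genotypes was several times the spread within either. Its log2 ratio was 1.59, 1.39, 1.64 and 1.84 on arrays a to d, or 1.61 ± 0.18 (SD, n = 4), with a 95% interval of the fold from 2.62 to 3.57 (limma, adjusted p = 0.000348). Its mean ratio was 1.61 in both dye orientations, unlike that of BIP3.

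The other lectin chaperones among the members changed far less than CRT3. CNX1, the membrane-bound calnexin, had log2 signals of 13.20, 13.20, 13.15 and 13.13 in ron3 and 12.86, 12.88, 12.81 and 12.92 in Ler. Its log2 ratio was 0.34, 0.33, 0.34 and 0.21, a 1.24-fold rise (limma, adjusted p = 0.00300), with array d apart from the other 3. CRT1a, a general calreticulin, had log2 signals of 12.48, 12.29, 12.36 and 12.48 in ron3 and of 12.34, 12.04, 12.16 and 12.14 in Ler. The genotypes overlapped across arrays, since the Ler sample on array a was brighter than the ron3 sample on array b. Its log2 ratio of 0.14, 0.25, 0.20 and 0.34 was a 1.17-fold rise (adjusted p = 0.00673), the smallest among the 10 genes. Without array c it no longer passed (adjusted p = 0.0564). CNX2, a calnexin gene outside the members, was lower in ron3 on all 4 arrays, with a log2 ratio of −0.19 (limma, adjusted p = 0.0108). The reference does not name CNX2, so it was left out of the list counts, and it was named here after its value was seen. Within each array the log2 ratio of CRT3 exceeded that of CRT1a by 1.14 to 1.49, and that of CNX1 by 1.06 to 1.62 (both 4 of 4 arrays, exact sign-flip permutation p = 0.125, two-sided).

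PDIL1-1 encodes a protein disulfide isomerase. Its brighter probe had normalised log2 signals of 12.36, 12.53, 12.44 and 12.56 in ron3 and of 11.93, 11.89, 11.79 and 11.75 in Ler. The genotypes did not overlap, and array d had both the highest ron3 value and the lowest Ler value. The log2 ratio was 0.43, 0.64, 0.65 and 0.81, or 0.63 ± 0.16 (SD, n = 4), a 1.55-fold rise (limma, adjusted p = 0.00113). PDIL1-1 was the only member with 2 probes, named in the array design for different transcripts of the locus. The dimmer probe gave 0.43, 0.55, 0.66 and 0.89 on arrays a to d, with a mean of 0.63 as well.

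bZIP60 encodes the transcription factor that activates many of these chaperone genes once its transcript is spliced by IRE1. Its normalised log2 signals were 13.66, 13.03, 13.89 and 13.94 in ron3 and 12.18, 12.12, 12.14 and 11.98 in Ler. The 4 Ler samples were nearly equal, and the ron3 samples spread over a wider range without reaching them. The SD over the 4 arrays was 0.42 in ron3 and 0.09 in Ler. The log2 ratio was 1.48, 0.91, 1.75 and 1.96 on arrays a to d, or 1.53 ± 0.45 (SD, n = 4), a 2.88-fold rise with a 95% interval from 2.05 to 4.06 (adjusted p = 0.00225, limma). Array b gave the lowest ratio for bZIP60 and for CRT3, but the highest for BIP3. The bZIP60 probe was not placed relative to the spliced segment, so the value is one of transcript level and says nothing of splicing.

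Counting genes whose ron3 signals all exceeded their Ler signals across arrays gave 8 of the 10 members, all but SDF2 and CRT1a, against 28.7% of all genes tested. In rank among all genes tested, BIP3 was 173 from the top, CRT3 528 and bZIP60 601, so that 0.894%, 2.74% and 3.12% of genes had a larger ratio. For the other 7 members that share ran from 11.6% for PDIL1-1 to 30.2% for CRT1a. The 3 leading members thus lay in the upper tail of the ratios, and the others on the upper slope of the main body of genes.

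**Figure D3:**
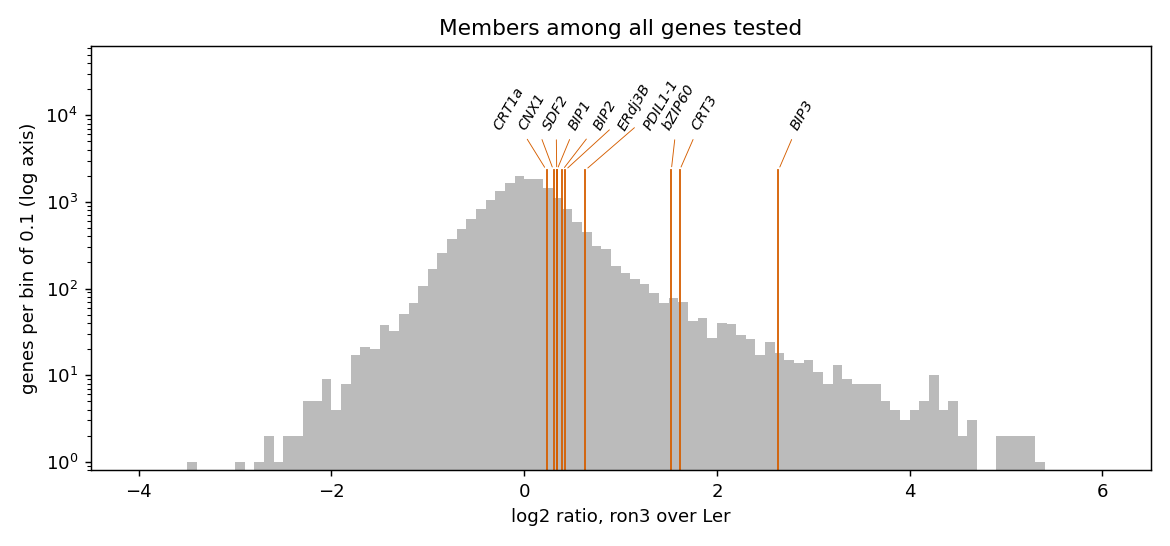
Number of genes per bin of 0.1 (vertical axis, log scale) against the log2 ratio of ron3 over Ler for the 19246 genes tested, with the 10 members as vertical lines. BIP3 at 2.64, CRT3 at 1.61 and bZIP60 at 1.53 lie in the right-hand tail, and the other 7 lie between 0.23 and 0.63.

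Ordered by log2 ratio, the members ran BIP3, CRT3, bZIP60, PDIL1-1, ERdj3B, BIP2, BIP1, SDF2, CNX1 and CRT1a. Of the 9 pairs of neighbours in this order, 3 kept the order on all 4 arrays: BIP3 over CRT3, bZIP60 over PDIL1-1, and PDIL1-1 over ERdj3B. The order was taken from these same 4 arrays, so the count describes their spread and is no separate check of the order. CRT3 exceeded bZIP60 on 2 of 4 arrays, with a mean difference of 0.09 ± 0.28 (SD, n = 4), so their order is not settled by these data. From ERdj3B to CRT1a the mean steps between neighbours were at most 0.07, each smaller than the SD of the step over the 4 arrays. The median over the members was 0.37, 0.52, 0.40 and 0.52 on arrays a to d. An unadjusted p below 0.05 for the dye effect was found in 3 of the 10 members, the 3 BiP genes (limma). The same was found in 2208 of the 19246 genes tested. After adjustment, a dye effect was called in 0 members and in 0 of all genes tested.

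The other genes of the pathway were described by lists of ER genes, each restricted to loci that the reference names. Of 51 such genes, all tested, 31 rose, 6 fell and 14 did not pass, with a median log2 ratio of 0.23 and 1 rise of at least 2-fold. The share that rose was 60.8%, beside 37.0% of all genes tested. Of the 19246 genes tested, 6.03% rose at least 2-fold and 6312 fell. The 1 list gene that rose at least 2-fold was NAC062. With 14 further list loci that the reference does not name, 42 of 65 rose, 2 of them at least 2-fold, and 8 fell.

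Among 9 sensors and transcription factors of the unfolded protein response, 4 rose, 1 fell and 4 did not pass, with a median of 0.13. The share that rose was 44.4%, not far from the 37.0% of all genes tested. NAC062, a membrane-tethered NAC factor of the response, had log2 ratios of 1.31, 0.80, 1.39 and 1.18 on arrays a to d, a 2.25-fold rise (limma, adjusted p = 0.000480). IRE1A, the splicing sensor, stood at 0.87, 0.69, 1.01 and 0.92, and BZIP28 at 0.83, 0.65, 0.89 and 0.68. Their adjusted p were 0.000505 and 0.000323. BZIP17 was the other list gene that rose and the sensor IRE1B the list gene that fell, with log2 ratios of 1.00 and −0.20. Both were named after their values were seen. All 4 that rose had their lowest ratio on array b, as bZIP60 had. NAC103, known as a direct target of bZIP60 and also named after its value was seen, had a log2 ratio of −0.07 (adjusted p = 0.146).

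Disulfide isomerases and ER oxidases were the list with the highest median of the 5 with more than 1 gene, 0.30. Of its 14 genes, 10 rose (71.4%) and 2 fell. PDIL1-3 had log2 ratios of 0.757, 1.009, 0.788 and 1.101 on arrays a to d, and ERO1, the oxidase that recharges disulfide isomerases, at 0.74, 0.83, 0.78 and 0.93. PDIL2-1, listed as UNE5 in the reference, rose 1.58-fold, beside 1.88-fold for PDIL1-3 and 1.76-fold for ERO1 (limma, adjusted p between 0.000270 and 0.000426). The list genes that fell, named after their values were seen, were PDIL5-4 at −0.41 and PDIL1-5 at −0.19. PDIL1-1, with its log2 ratio of 0.63, thus lay below 3 of the other isomerase and oxidase genes.

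Other lumenal chaperones and J proteins moved both ways: of 7, 3 rose (42.9%, beside 37.0% of all genes tested) and 2 fell. The median was −0.003. SHD, the ER member of the Hsp90 family, rose 1.36-fold (log2 ratio 0.44, adjusted p = 0.00124, limma) and the J protein ERDJ3A rose 1.26-fold (0.33, adjusted p = 0.00418). ERDJ2B, a J protein of the translocation pore, had a log2 ratio of −0.33 (adjusted p = 0.00213). P58IPK, another J protein, was the second that fell, at −0.23, and CRT1B, at 0.24, was the third that rose, both named after their values were seen. ERdj3B at 0.42 and SHD were thus close in size, while ERDJ2B and P58IPK were lower in ron3.

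In N-glycan transfer and glycoprotein quality control, 6 of 9 rose (66.7%), with a median of 0.19. In that list 0 fell (limma), also at an unadjusted p under 0.05. The oligosaccharyltransferase subunits STT3B, HAP6 and DGL1 had log2 ratios of 0.42, 0.40 and 0.37. In ER-associated degradation, which returns misfolded proteins to the cytosol, 7 of 11 rose (63.6%) and 1 fell, with a median of 0.23. DER2.2 rose 1.47-fold, the ubiquitin-conjugating enzyme UBC32 1.35-fold and HRD3A, listed as EBS5, 1.33-fold (adjusted p between 0.00107 and 0.00132). DER2.1, at −0.22 and named after its value was seen, was the list gene that fell. The translocation list held 1 gene with a reference name, SEC61 BETA, which rose 1.30-fold (adjusted p = 0.00146).

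**Figure D4:**
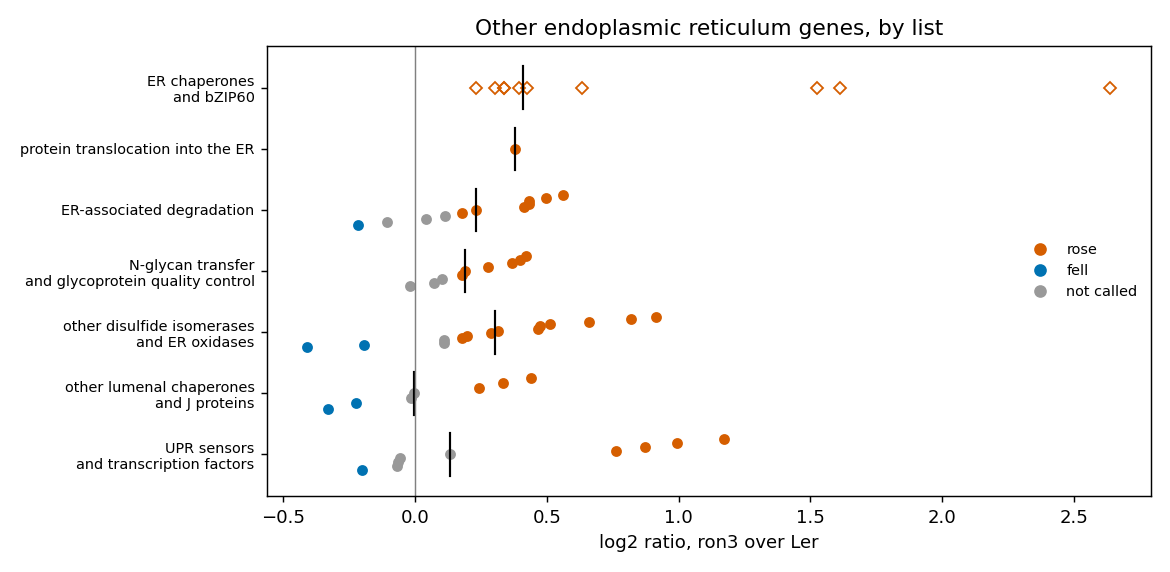
Log2 ratio of ron3 over Ler (horizontal axis) for the 51 other ER genes, with 1 point per gene in rows by list, coloured by whether the gene rose, fell or did not pass, and a black line at each median. The 10 members (open diamonds, top row, median 0.41) include the 3 largest ratios in the plot, and NAC062 at 1.17 is the highest of the others.

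By pattern over the 4 arrays, the tested genes outside these lists that were nearest to BIP3 were AT1G23840, FAMT, AT4G10500, WRKY60 and LSU3. The root mean square distance of their log2 ratios from those of BIP3 was 0.348, 0.353, 0.374, 0.437 and 0.444. FAMT, a methyltransferase gene, had log2 ratios of 2.17, 3.10, 2.41 and 2.76 on arrays a to d, and LSU3, a gene of the response to low sulfur, at 2.62, 2.82, 2.34 and 2.57. Like BIP3, all 5 were several-fold higher in ron3 on each array. All 5 also had lower mean log2 ratios with ron3 in Cy5, as BIP3 had. The unadjusted dye p of FAMT, AT4G10500 and WRKY60 were 0.0115, 0.0055 and 0.0323 (limma, 0.404 to 0.414 after adjustment). Those of AT1G23840 and LSU3 were 0.0910 and 0.216. With the authors' values AT4G10500 stood at 4.86, above BIP3 at 3.87. The 5 genes were picked for their likeness, so it is no evidence of a relation.

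Marker genes of other tissues also differed between the genotypes. Of 10 root and root hair markers, 3 were well above background in both genotypes on all 4 arrays, and PLT1 and PLT2 were not on any array. Of the 8 tested, 5 rose (62.5%, beside 37.0% of all genes tested). A fall was called in 0 of them (limma), and 0 fell also at an unadjusted p under 0.05. EXPA7 and EXPA18 were among those that rose, but in Ler they were well above background on 0 arrays, so they passed the filter only through ron3, and COBL9 was so in Ler on 2 arrays. A rise of such genes is partly set by the filter. The mean log2 ratio of the 8 was 0.55, 0.70, 0.75 and −0.01 on arrays a to d, and their mean normalised log2 signal ran from 7.10 to 7.74 in ron3 and from 6.83 to 7.13 in Ler. The low mean on array d includes the phosphate transporter gene PHT1;1 at −1.10 there, while IRT1 stood at 0.67, CASP1 at 0.31 and COBL9 at 0.21 on that array. The part of root tissue in the rise of the members was not tested.

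Of 6 photosynthetic leaf markers 5 fell and 0 rose (limma; 0 rose also at an unadjusted p under 0.05), with mean log2 ratios of −0.22, −0.40, −0.21 and −0.70 on arrays a to d. Arrays b and d are those with ron3 in Cy3, and part of this split follows the dye. LHCB1.1 was higher in ron3 on arrays a and c, at 0.19 and 0.20, and lower on b and d, at −0.44 and −0.66, with an unadjusted dye p of 0.0012, and that of LHCA1 was 0.0033 (both 0.404 after adjustment, limma). EXPA7, EXPA18, PHT1;1 and LHCB1.1 were named after their values were seen. CA1, at −1.28, −0.95, −1.38 and −1.47, was lower in ron3 on every array without such a split. The mean log2 signal of the leaf markers ran from 15.56 to 15.81 in ron3 and from 16.01 to 16.26 in Ler. The part of leaf tissue in the rise of the members was not tested. Of the 8 meristem and boundary markers tested, 3 rose and 5 fell, with a median of −0.17. Their mean signals were 9.54 to 9.62 in ron3 and 9.65 to 9.70 in Ler. For both marker lists the background is that 7126 of the 19246 genes tested rose and 6312 fell.

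**Figure D5:**
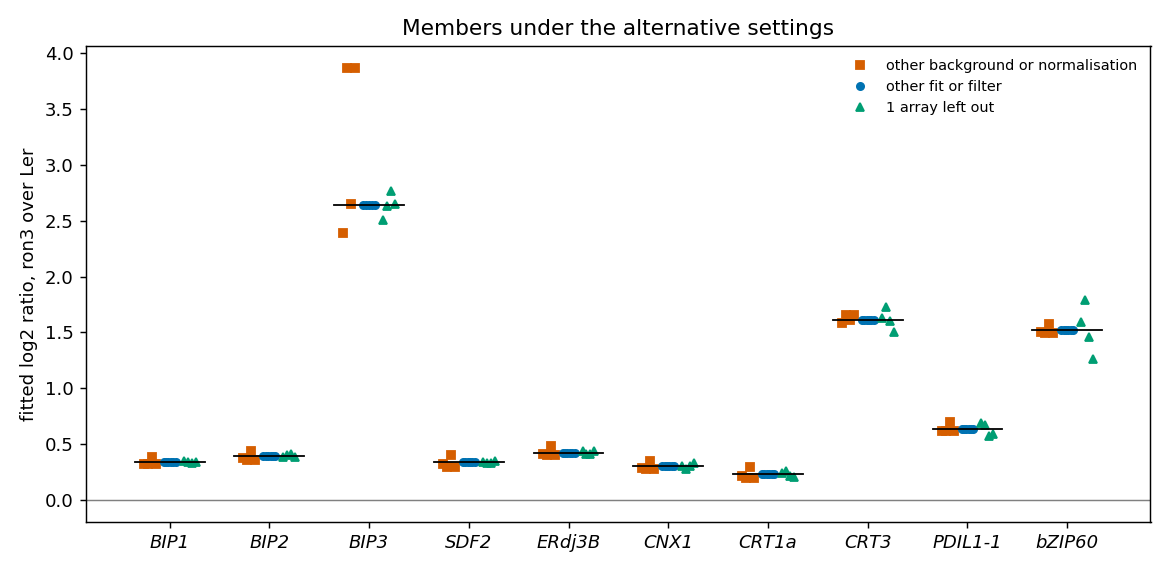
Fitted log2 ratio of ron3 over Ler (vertical axis) for each of the 10 genes under the alternative settings, with squares for other background corrections or normalisations, circles for other fits or filters and triangles for fits with 1 array left out. Black lines mark the reported values, all points lie above 0, and the squares of BIP3 at 3.87 are the only ones far from their line.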

How the data were processed

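Agilent Feature Extraction 10.1.1.1 quantified the spots, per the submitters' processing notes. The deposited spot, background and processed signals are intensity values, medians for spot and background per the file headers, and the processed signals had been corrected and dye-normalised there. The deposited log ratio is the log10 of Cy5 over Cy3 per the file headers, and the deposited flags (other) are 0 or 1. The authors' value table holds a log2 ratio of ron3 over Ler, uncentred, with medians of −0.01, −0.12, 0.01 and −0.17 on arrays a to d. For probes with a single spot it differed from the ratio of the processed signals by at most 5.0e-06.

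Signals were corrected by normexp (offset 50) from medians, where mean spot signals had been planned, and normalised by loess within arrays in limma 3.58.1 (R 4.3.3). Genotype signals were then scaled with Aquantile. Probes entered when well above background in either genotype on at least 2 of 4 arrays and unflagged on at least 3, and the brightest probe stood for a locus. Over the arrays 43 gene spots were flagged and 0 saturated, and the number of arrays limits the precision. A model with a dye effect was fitted, with 2 residual and 2.45 prior degrees of freedom, and tests were two-sided at 0.05 after Benjamini-Hochberg adjustment. SDs of ratios are over the 4 arrays and include the dye effect. The fit was tested on simulated data. Alternatives were other background corrections, normalisations, filters and probe rules, no dye effect, pairs of arrays averaged, and each array left out.

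The members, lists and tests were chosen with earlier results of these data known. Named genes were all members, RON3, in each list up to 3 genes past the threshold, by smallest p, and the 5 nearest to the member with the largest ratio. Symbols came from the TAIR10.1 reference table. That AT4G24500 is RON3 was taken from background knowledge. Of 91 list entries in 9 lists, 14 had no name there and were left out, 8 of them among the 9 translocation genes. A planned search for promoter motifs was not run, since no promoter sequences were used here.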

Additional observations from a re-analysis of the deposited data

Results flagged for a closer look

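Of 41 genes named by the rule, 3 had 1 array that stood apart from the other 3 by more than Dixon's 95% limit for 4 values. Chance flags about 1 in 20 such groups. Among the members this was CNX1, whose log2 ratio on array d was 0.21 while the other arrays lay between 0.33 and 0.34. UBC32, of ER-associated degradation, was highest on array b, at 0.56 against 0.38 to 0.41. The root marker IRT1, an iron transporter gene, was lowest on array d, at 0.67 against 1.61 to 1.73.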

How the results depend on the processing

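Each result was recomputed under 14 alternatives. The count of members called higher in ron3 was 10 in 12 of them. It was 9 with the filter that asks for signal in both channels on all arrays, which leaves out BIP3, and 9 without array c, where CRT1a stood at 0.22 (adjusted p = 0.0564). Of 139 values for single members, 138 kept direction and call. Leaving out 1 array moved the count of genes called between 10038 and 13239, that of members between 9 and 10 and that of other ER genes that rose between 26 and 33. The log2 ratio of CRT1a then lay between 0.21 and 0.26. Beyond the arrays left out, the other ER genes that rose numbered 29 to 32, and those that fell 3 to 10. With the 14 loci that have no reference name, an alternative chosen after seeing the data, 42 of 65 rose and 8 fell. Among the other named genes RBCS1A, a leaf marker, turned from −0.17 to 0.057 with the scanner software's log ratio and with the authors' values, and the cause was not tested. Of the 431 values of other named genes, 4 lost their call and kept their direction, each with 1 array left out: RBCS1A without array a (adjusted p = 0.112), c (0.0955) or d (0.0515), and the root marker COBL9 without array a (0.0532). BIP3 is the dimmest member in Ler, and its fold is the one most limited by signal over background. Each ratio sets ron3 against Ler on the same array, so every fit was paired within arrays.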
